A study of Mus musculus with 34 samples.

Results

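The genes described here encode the proteins of the mitochondrial ribosome. They were taken as every entry of the count table whose symbol is Mrpl or Mrps followed by a number and at most 1 letter, which gave 76 of 29876 entries. The rule uses names and no measured value. By their names and textbook placement, 49 belong to the large subunit and 26 to the small subunit, with Mrps30 and Mrps18a counted in the large subunit. Mrps36 was kept as a member but placed in neither subunit, because its product is now known as a subunit of the 2-oxoglutarate dehydrogenase complex.

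The mitochondrial ribosome translates the few messenger RNAs of the mitochondrial genome, which encode core subunits of the respiratory chain and the ATP synthase. All of its proteins are encoded in the nucleus, made in the cytosol and imported. The ribosomal RNAs come from the mitochondrial genome itself. The proteins fall into a set with bacterial counterparts, which sit around the catalytic and decoding centres, and a set found in mitochondria without a bacterial counterpart.

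RNA was sequenced from mouse embryonic stem cells (ESC), from neuronal progenitors of the ventral midbrain lineage at day 5 of differentiation (NPC), and from immature dopaminergic neurons at day 16. At each stage 3 genotypes were compared: control lines (labelled 129Sv +/+), lines with a heterozygous deletion of the 7qF3 segment (df/+), and lines that carry a deletion and a duplication of it (df/dp, called duplication-deletion below). All lines carry the background strain label C57BL/6N. The control, deletion and duplication-deletion groups held 3, 3 and 3 libraries in ESC, 5, 3 and 3 in NPC and 4, 2 and 2 in neurons, 28 in all. The lines came from another laboratory, differentiation passed through an epiblast stem cell stage, and the labels do not say whether libraries of a group came from separate cultures, so p-values measure the spread between these libraries, which may be technical.

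Total counts were 35672610 to 78814037 in 22 libraries. They were 5578151 to 24053970 in the other 6, which are replicate 3 of every ESC genotype and replicate 5 of every NPC genotype. The shallowest, ESC deletion replicate 3, gave 23.1% of its counts to the entry Lars2, against at most 2.41% elsewhere. A single other entry took 14.4 to 38.8% of the counts of every library, and the most in control neuron replicate 1. Summed pluripotency marker levels were 858 to 1560 CPM (counts scaled to library size by TMM) in ESC libraries and at most 5.24 CPM at the later stages, and summed dopaminergic markers were 149 to 931 CPM in neurons against 11.4 to 133 CPM in NPC. Astrocyte markers summed to 252 to 677 CPM in neurons against 19.4 to 119 CPM in NPC. Summed levels of 22 genes of the 7qF3 segment averaged 575 CPM in deletion and 1490.7 CPM in control ESC, 284 and 503 CPM in NPC, and 587 and 830 CPM in neurons. Duplication-deletion lines averaged 1340, 479 and 669 CPM at these stages, and in neurons 15 of the 22 genes had negative log2 fold changes against control. In bulk RNA, fewer cells of a type and less RNA per cell cannot be told apart.

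Promoters of members with unlike calls at the control steps described below are printed first, since the 3 Mrps18 paralogs and a few others recur. Whether their changes differ from each other was not tested. RefSeq promoters (GRCm38.p6) were matched for 67 of the 76 members. Each line gives the 120 bases before the annotated start site, 5′ to 3′ on the gene's strand. Capitals mark CCGGAAG, the core bound by ETS factors such as GABP, or the consensus palindrome bound by NRF1. Both factors are textbook regulators of nuclear genes for mitochondria.
Mrps18a (chr17:46110884-46111003, plus strand): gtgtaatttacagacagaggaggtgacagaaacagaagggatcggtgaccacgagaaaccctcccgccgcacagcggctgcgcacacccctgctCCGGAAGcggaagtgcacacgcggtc
Mrps18b (chr17:35916441-35916560, minus strand): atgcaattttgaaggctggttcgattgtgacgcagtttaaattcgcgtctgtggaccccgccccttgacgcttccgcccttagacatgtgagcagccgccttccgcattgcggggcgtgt
Mrps18c (chr5:100798639-100798758, plus strand): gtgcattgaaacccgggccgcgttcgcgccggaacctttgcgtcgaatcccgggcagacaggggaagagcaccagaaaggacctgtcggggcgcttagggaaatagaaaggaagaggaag
Mrpl1 (chr5:96209995-96210114, plus strand): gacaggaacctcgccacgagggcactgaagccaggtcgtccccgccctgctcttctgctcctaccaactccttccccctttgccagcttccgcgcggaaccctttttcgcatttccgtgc
Mrpl3 (chr9:105053148-105053267, plus strand): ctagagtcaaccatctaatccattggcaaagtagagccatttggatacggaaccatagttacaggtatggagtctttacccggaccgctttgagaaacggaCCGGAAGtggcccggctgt
Mrps22 (chr9:98601680-98601799, minus strand): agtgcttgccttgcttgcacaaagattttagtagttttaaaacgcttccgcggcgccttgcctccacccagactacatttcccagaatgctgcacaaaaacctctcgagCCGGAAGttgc
Mrpl9 (chr3:94443216-94443335, plus strand): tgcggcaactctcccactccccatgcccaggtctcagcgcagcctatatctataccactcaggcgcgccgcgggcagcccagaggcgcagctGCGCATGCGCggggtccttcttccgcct
Mrps6 (chr16:92058216-92058335, plus strand): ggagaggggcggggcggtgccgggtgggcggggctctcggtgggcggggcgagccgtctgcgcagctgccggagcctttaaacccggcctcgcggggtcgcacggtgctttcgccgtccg

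In these lines the ETS core is present for Mrps18a, Mrpl3 and Mrps22, and the NRF1 palindrome for Mrpl9. Mrps18c also held 1 ETS core within the 250 bases searched, but not wholly within the 120 bases printed. Across the 250 bases before the start site, on either strand, CCGGAAG was found in 16 of 67 members (23.9%), against 7.05% of 27025 promoters of all symbols and 9.13% of 17492 of protein-coding symbols. The NRF1 palindrome was found in 3 members (4.48%), Mrpl9, Mrpl32 and Mrpl39, against 0.781% of all promoters. AAGATGGCG, the YY1 motif, was found in 2 members (2.99%), against 0.607%. CACGTG, the E-box bound by MYC, was found in 5 members (7.46%), against 6.05%, and TATAAA in 4 (5.97%), against 13% of all promoters. The median GC content was 58.4% in members and 55.2% in protein-coding symbols. Among members that were lower at either control step described below, 10 of 43 held the ETS core (23.3%), and among the others 6 of 24 did (25%). A match describes the letters only.

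Summed over all 76 members, mean levels were lower at each later stage in every genotype. Control ESC libraries held 2823, 3043 and 2680 CPM. Control NPC libraries held 1779, 1915, 2189, 1586 and 1984 CPM, and control neurons 1168, 1038, 974 and 1065 CPM. The control libraries of the 3 stages did not overlap. In deletion lines the sums were 2582, 2898 and 2123 CPM in ESC, 1627, 1627 and 2440 CPM in NPC, and 899 and 1011 CPM in neurons. In duplication-deletion lines they were 2698, 2963 and 2680 CPM, then 1969, 1673 and 2295 CPM, then 1121 and 1097 CPM. Deletion ESC and NPC overlapped, through the shallow libraries ESC replicate 3 and NPC replicate 5, and the other neighbouring stages did not. The gap between ESC and NPC depended on the scaling. On raw totals, without scaling between libraries, ESC and NPC overlapped in every genotype. Control lines then held 2239 to 2965 CPM in ESC and 1590 to 2292 CPM in NPC. Means on raw totals were 2559, 1943 and 1245 CPM from ESC to neurons in control lines, 2086, 1970 and 1083 CPM in deletion lines, and 2433, 2052 and 1281 CPM in duplication-deletion lines. NPC and neurons did not overlap on raw totals in any genotype. In control lines they nearly met, at 1590.32 CPM in the lowest NPC library and 1589.33 CPM in the highest neuron library.

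**Figure D1:**
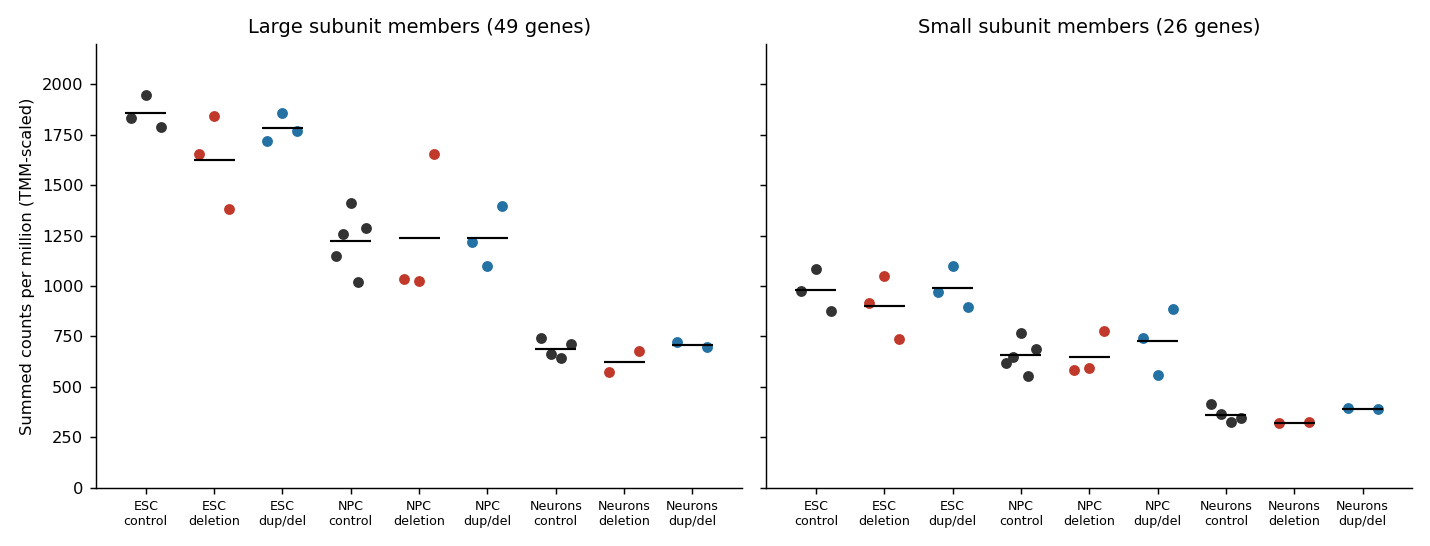
Summed TMM-scaled CPM of large subunit members (left) and small subunit members (right). Each point is 1 library, bars are group means, and colours are control (black), deletion (red) and duplication-deletion (blue). Group means of both subunits are highest in ESC and lowest in neurons, and each mutant group overlaps with control at every stage when libraries are not paired by number.

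The ratio of summed large to small subunit CPM was 1.90 ± 0.124 (SD, n = 3) in control ESC, 1.87 ± 0.0407 (SD, n = 5) in control NPC and 1.91 ± 0.129 (SD, n = 4) in control neurons. The 3 stages overlapped, and over all 28 libraries the ratio lay between 1.58 and 2.13.

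From ESC to NPC in control lines, 25 members were lower and 1 was higher by edgeR's quasi-likelihood test at an adjusted p under 0.05 (Benjamini-Hochberg over 18365 genes). Of all genes tested, 20.5% were lower and 21% higher. The median member log2 fold change was -0.48, against 0.01 over all genes, and 63 of 76 members had a negative value. In the large subunit 15 of 49 members were lower. In the small subunit 10 of 26 were lower and 1 was higher. Of members with bacterial counterparts 16 of 47 were lower and 1 higher, and of mitochondria-specific members 9 of 28 were lower. Markers of other cells moved at this step too. Summed fibroblast markers were 13.7 to 70.1 CPM in ESC and 331 to 4260 CPM in NPC of all genotypes, with 2 of 3 higher and 1 lower in control NPC. Neural crest and mesenchyme markers summed to 8.73 to 27.8 CPM in ESC, and 4 of 5 were higher in control NPC. Of 6 proliferation markers 3 were lower. Their part in the result was not tested.

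Mrps18b, one of the 3 mammalian paralogs of bacterial S18, read 124, 116 and 76.4 CPM in control ESC and 23.1, 27.1, 44.1, 23 and 37.9 CPM in control NPC. No NPC library reached the lowest ESC library. It was 3.42-fold lower (log2 fold change -1.77 ± 0.36 SE, adjusted p = 0.00136). Its deposited span is chr17:36047330-36053314 (mm9), and it overlaps another entry of the count table.

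Mrpl15, a large subunit protein with a bacterial counterpart at chr1:4763279-4775807 (mm9), read 131, 128 and 82.6 CPM in control ESC and 39.1, 30.8, 39.4, 22.2 and 20.7 CPM in NPC. The groups were apart, and the log2 fold change was -1.92 ± 0.261 SE (adjusted p = 6.23e-05). Mrps5, a small subunit protein, read 122, 177 and 101 CPM against 54.5, 48.2, 61.7, 56.1 and 55.6 CPM, a log2 fold change of -1.28 ± 0.207 SE. Mrpl45, a mitochondria-specific protein at the exit of the peptide tunnel, read 58.4, 64.1 and 82.8 CPM against 24.3, 26.9, 25.5, 22.2 and 33.1 CPM, a log2 fold change of -1.39 ± 0.208 SE. Both sets of libraries were apart between the stages.

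For the largest fall by point estimate, in Mrps24, the size and the call at an adjusted p under 0.05 depended on 1 library. Mrps24, a small subunit protein, read 14.0 and 12.2 CPM in the deeper control ESC libraries and 39.4 CPM in the shallow replicate 3, against 2.74 to 6.83 CPM in NPC. Its log2 fold change was -1.99 ± 0.498 SE (adjusted p = 0.0055), and -1.26 without ESC control replicate 3 (adjusted p = 0.065). Mrps16 behaved alike, at 12.1, 11 and 24.1 CPM against 3.42 to 8.49 CPM, with a log2 fold change of -1.50 ± 0.416 SE (adjusted p = 0.01) and -1.06 without that library (adjusted p = 0.0785).

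Mrps21, a small subunit protein with a bacterial counterpart (chr3:95666575-95675407, mm9), was the 1 member that was higher. It read 22.4, 18.3 and 25.3 CPM in control ESC and 31.7, 34.3, 53.5, 28.6 and 47.8 CPM in NPC, with no overlap. The log2 fold change was 0.82 ± 0.268 SE (adjusted p = 0.0241). Leaving out ESC replicate 1 or 2, or NPC replicate 3 or 5, took the adjusted p to between 0.0508 and 0.0918.

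From NPC to neurons in control lines, 43 members were lower and 1 was higher, with 20.5% of all genes lower and 23.2% higher. The median member log2 fold change was -0.72, against 0.10 over all genes, and 67 of 76 values were negative. In the large subunit 28 of 49 members were lower (median -0.82), and in the small subunit 15 of 26 were lower and 1 was higher (median -0.72). This step and the first share the control NPC libraries. Summed proliferation markers were 118 to 247 CPM in neurons of all genotypes against 1930 to 4320 CPM in NPC, and all 6 of them were lower in control neurons. Of the astrocyte markers above, 4 of 5 were higher in control neurons. Summed neural crest and mesenchyme markers were 298 to 792 CPM in neurons against 33.3 to 361 CPM in NPC, and 3 of 5 were higher in control neurons. The part of these markers in the result was not tested.

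Mrps18b was again among the most lowered, at 8.16, 16.2, 5.23 and 5.42 CPM in control neurons. All 4 lay below the lowest NPC library. The log2 fold change was -1.80 ± 0.356 SE (adjusted p = 0.00109), a 3.47-fold fall. Mrpl22, which lines the peptide tunnel, read 14.8, 19.3, 6.28 and 8.24 CPM in neurons and 25.2, 35.3, 54.5, 32.8 and 36.9 CPM in NPC, a log2 fold change of -1.57 ± 0.334 SE (adjusted p = 0.00176).

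Mrpl42, a mitochondria-specific protein, read 67.3, 73.8, 90.8, 58.6 and 74.6 CPM in control NPC and 38.8, 33.9, 16.7 and 18.6 CPM in neurons, a log2 fold change of -1.41 ± 0.268 SE. Mrps23 read 54.0, 52.9, 69.8, 35.7 and 44.0 CPM against 27, 27.5, 10.5 and 11.4 CPM, a log2 fold change of -1.39 ± 0.32 SE. For both genes the neuron libraries lay below every NPC library, with replicates 3 and 4 lowest. Mrps28 had a log2 fold change of -1.50 ± 0.34 SE and Mrpl54 of -1.43 ± 0.279 SE, also without overlap.

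Mrps6, a small subunit protein, was the 1 member that was higher in control neurons, and it is described for that reason, chosen after its values were seen. It read 2.35, 6.26, 3.45, 2.78 and 11.6 CPM in NPC and 7.15, 11.2, 14.5 and 15.0 CPM in neurons. NPC replicate 5, a shallow library, lay inside the neuron range. The log2 fold change was 1.21 ± 0.463 SE (adjusted p = 0.0473), and no member was higher without ESC replicate 1, any of NPC replicates 1 to 4, or any of neuron replicates 2 to 4. The deposited span of Mrps6 (chr16:92058567-92112472, mm9) overlaps that of the transporter gene Slc5a3, and reads of the pair may be shared.

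**Figure D2:**
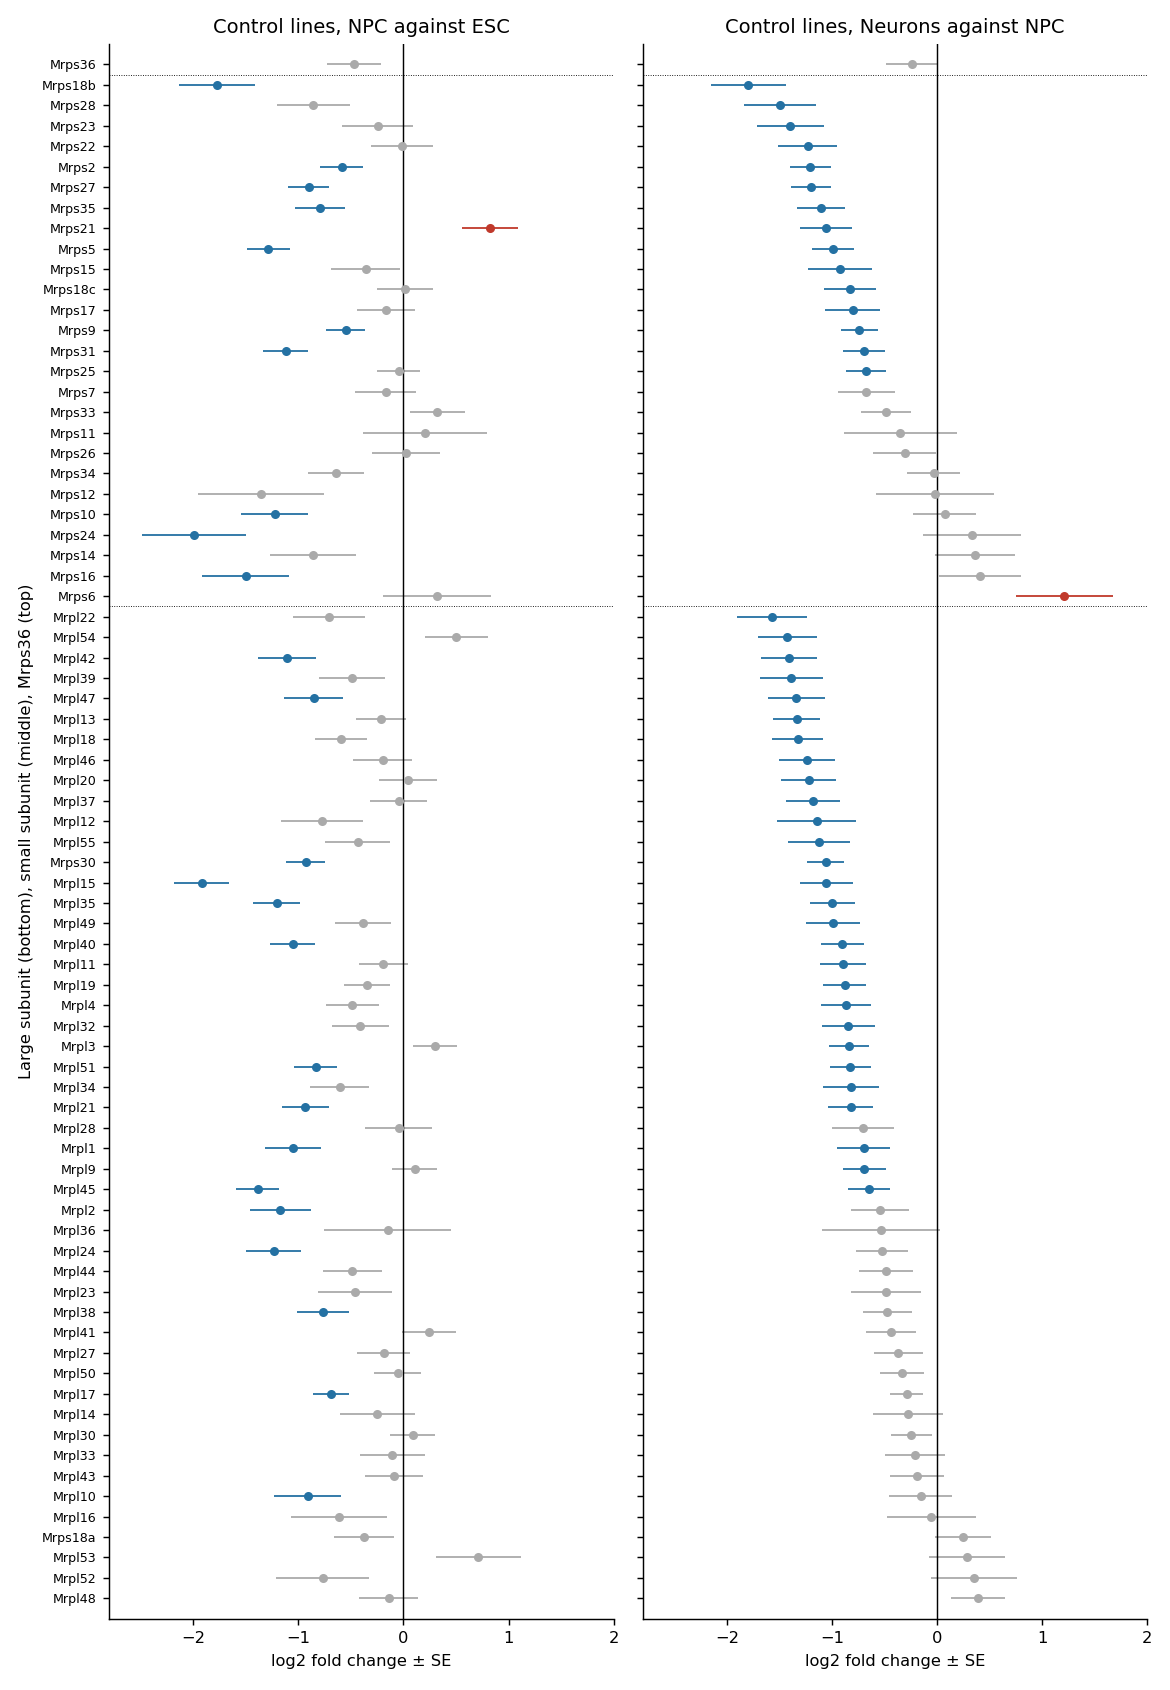
The log2 fold change of each of the 76 members in control lines, with its standard error, from ESC to NPC (left) and from NPC to neurons (right). Blue points were lower, red points higher and grey points not past an adjusted p of 0.05. At the second step 43 members are blue, and Mrps6 is red.

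The 2 control steps share the NPC libraries, so calls at both are not separate evidence. Mrps31 had log2 fold changes of -1.12 ± 0.211 SE and -0.69 ± 0.201 SE, and Mrps27 of -0.90 ± 0.196 SE and -1.20 ± 0.189 SE, and both genes were lower at each step. Passing at 1 step and not at the other does not show that the steps differ, which was not tested. Mrps21 was higher and then lower, with a second log2 fold change of -1.06 ± 0.244 SE.

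The 3 Mrps18 paralogs did not share a pattern of calls. Mrps18b passed at both steps. Mrps18c had a log2 fold change of 0.01 ± 0.265 SE at the first step and was lower at the second, at 11.1, 18.3, 13.3, 10.8 and 17.1 CPM in NPC and 9.32, 6.59, 6.81 and 8.44 CPM in neurons (-0.83 ± 0.248 SE, adjusted p = 0.0146). Mrps18a had -0.37 ± 0.286 SE and 0.25 ± 0.264 SE, neither past the threshold.

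The stalk that recruits translation factors is built by Mrpl12 on Mrpl10. Mrpl10 was lower at the first step, at 31.6, 27.5 and 57.3 CPM in control ESC and 18.5 to 23.7 CPM in NPC (log2 fold change -0.91 ± 0.32 SE, adjusted p = 0.0345). The highest ESC value came from the shallow replicate 3, at 1.94 times the mean of the deeper libraries. Mrpl12 was lower at the second step, at 14.0, 16.5, 18, 8.49 and 31.1 CPM in NPC and 6.88, 9.95, 6.92 and 7.48 CPM in neurons (-1.15 ± 0.378 SE, adjusted p = 0.0243), with overlapping libraries. The highest NPC value came from the shallow replicate 5, at 2.18 times the mean of the deeper libraries. Mrps12, of the decoding centre, had -1.36 ± 0.601 SE at the first step (adjusted p = 0.0862). Its level in the shallow control ESC library was 4.33 times the mean of the deeper ones.

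Mrps30, a large subunit protein despite its name, was lower at both steps. It read 51.7, 56.2 and 49.3 CPM in ESC, 27, 27.5, 31.6, 26 and 26.9 CPM in NPC and 14.0, 15.7, 10.5 and 12.1 CPM in neurons. The stages did not overlap, and the log2 fold changes were -0.93 ± 0.184 SE and -1.06 ± 0.177 SE.

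Among human mitochondrial disease genes, Mrpl3 read 32.9, 30.7 and 24.8 CPM in ESC, 43.2, 37.3, 40.9, 30.8 and 31.1 CPM in NPC and 24.9, 17.7, 17.6 and 20.4 CPM in neurons. Its first log2 fold change was 0.30 ± 0.207 SE (adjusted p = 0.266), and it was lower at the second (-0.83 ± 0.191 SE, adjusted p = 0.00296). Mrps22 had -0.02 ± 0.296 SE at the first step and was lower at the second (-1.23 ± 0.28 SE, adjusted p = 0.00282). Mrpl44 had -0.48 ± 0.277 SE and -0.49 ± 0.26 SE, neither past the threshold. Mrpl23, next to the imprinted H19-Igf2 domain, passed at neither step (-0.46 ± 0.355 SE and -0.48 ± 0.333 SE), nor did Mrps36 (-0.47 ± 0.256 SE and -0.24 ± 0.239 SE).

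**Figure D3:**
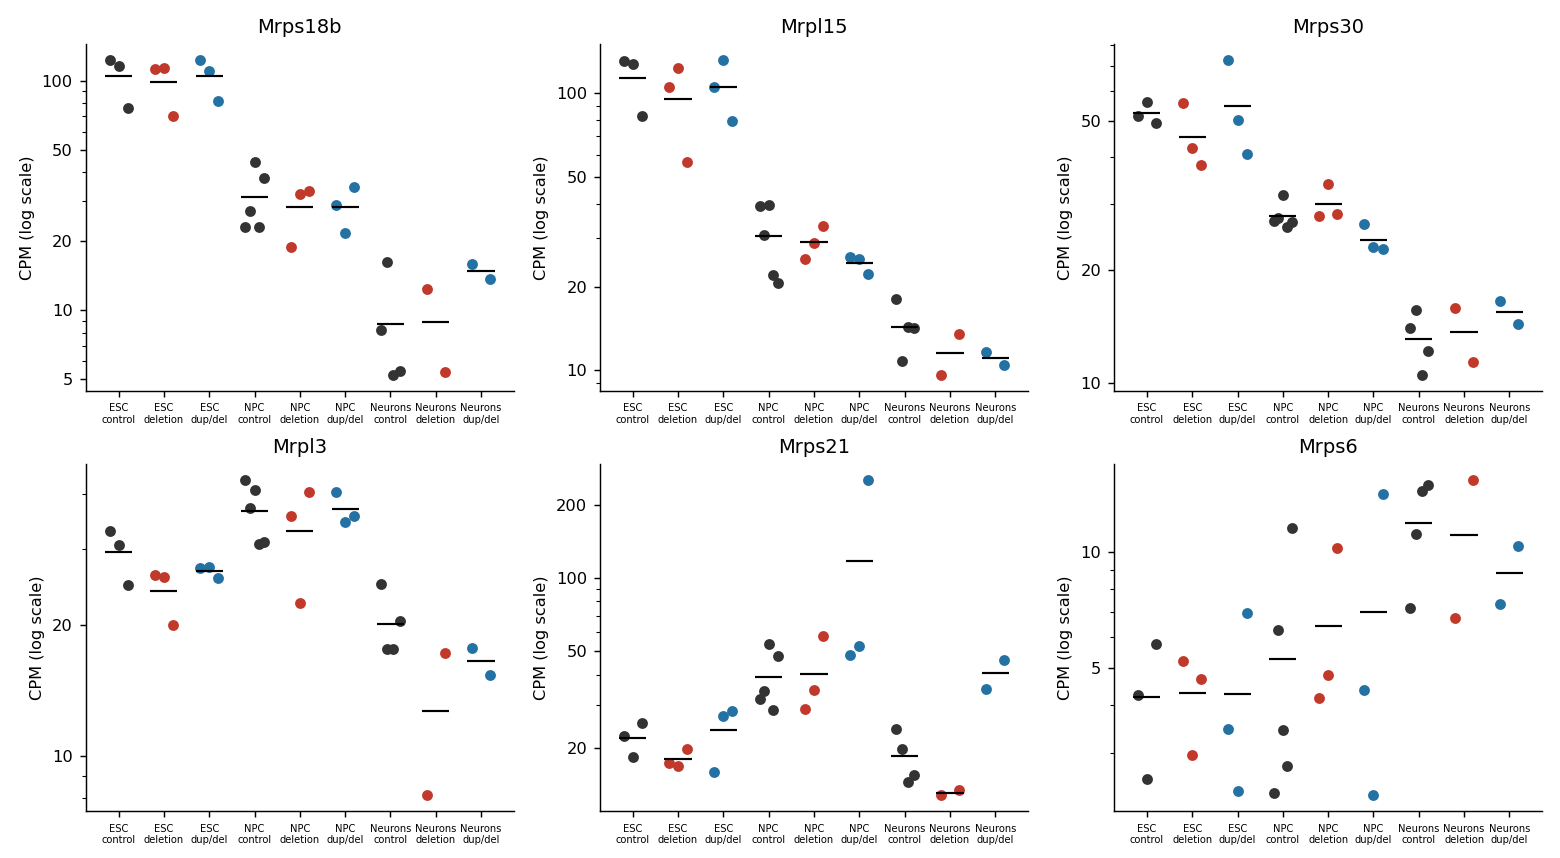
Levels of 6 members in every library, in TMM-scaled CPM on a log axis. Points are libraries, bars are group means, and colours are control (black), deletion (red) and duplication-deletion (blue). Mrps18b, Mrpl15 and Mrps30 are lower at each later stage, Mrpl3 is lowest in neurons, Mrps21 peaks in NPC with 1 duplication-deletion library at 253 CPM, and Mrps6 is highest in neurons.

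Other genes of mitochondrial translation are given as counts from lists. Of all genes tested, 20.5% were lower at each control step, with 21% higher at the first and 23.2% higher at the second. Of 7 mitoribosomal proteins with other names, 3 were lower at each control step, with Dap3 at a log2 fold change of -1.23 ± 0.251 SE at the first and Ptcd3 at -2.05 ± 0.245 SE at the second. Of 18 assembly and rRNA modification genes tested, 6 were lower at each step, among them Gtpbp10, a GTPase of large subunit assembly (-0.94 ± 0.248 SE and -1.19 ± 0.239 SE). Of 16 translation factors 7 (43.8%) and then 4 (25%) were lower, including Mtif2, the initiation factor, at -1.31 ± 0.205 SE and -0.60 ± 0.194 SE. Of 17 mitochondrial aminoacyl-tRNA synthetases, 6 were lower at the first step, and 6 lower and 1 higher at the second.

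Of 7 genes tested for mitochondrial DNA transcription and maintenance, 1 (14.3%) and then 4 (57.1%) were lower, against 20.5% of all genes at each step. The 4 included Tfam, which packages the mitochondrial genome, at -0.996 ± 0.197 SE at the second step. Of 10 regulators, 3 were lower at the first step, Gabpa, Pprc1 and Mycn, and 6 were lower and 1 higher at the second. Nrf1 was lower at the second step (-1.54 ± 0.185 SE), and Ppargc1a was higher, from a mean of 0.232 CPM in control NPC to 8.14 CPM in neurons.

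Other large gene groups are given for comparison. Of 80 cytosolic ribosomal protein genes tested, 31 (38.8%) were lower at the first step (median log2 fold change -0.74) and 50 (62.5%) at the second (median -0.98). Of 81 nuclear genes of oxidative phosphorylation, 15 (18.5%) were lower at the first step (median -0.48). At the second, 10 (12.3%) were lower and 3 (3.7%) higher (median -0.13). Of all genes 20.5% were lower at each step, so the lower shares in oxidative phosphorylation did not exceed that of all genes. By direction alone, 90.1% of its genes were negative at the first step, against 82.9% of members and 49.4% of all genes. At the second step 55.6% were negative, against 88.2% of members and 46.2% of all genes. No test compared these groups with the mitoribosomal members.

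In deletion lines, from ESC to NPC, 6 members were lower and 1, Mrps21, was higher, with 13.2% of all genes lower and 16.7% higher. The median member log2 fold change was -0.18, and -0.57 without the shallow libraries, where 10 members were lower and none higher. Leaving out ESC replicate 1 or 2, or NPC replicate 1 or 3, gave 3 lower members, and Mrps21 was no longer called without ESC replicate 1 or 2 or NPC replicate 5. From NPC to neurons 20 were lower and none higher, with 9.39% of all genes lower and 10.5% higher (median -1.02, or -0.56 with 14 lower without the shallow libraries). Without ESC replicate 1, NPC replicates 1, 3 or 5, or neuron replicates 1 or 3, the lower members numbered 12, 9, 11, 8, 8 and 9.

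In duplication-deletion lines, 17 members were lower and 1, Mrps21, higher from ESC to NPC, with 14.2% of all genes lower and 17.5% higher (median -0.29). Without ESC replicate 1, ESC replicate 2, NPC replicate 4 or neuron replicate 4, the lower members numbered 10, 6, 6 and 10. Neurons enter this step through the shared estimate of spread. Mrps21 was no longer called without ESC replicate 1 or 2. From NPC to neurons 14 were lower and none higher, with 6.95% of all genes lower and 8.04% higher (median -0.80). Leaving out either neuron library of this genotype, which leaves 1 whose spread is taken from the other stages, gave 0 lower members. Without ESC replicate 1 or 2 there were 9, without NPC replicate 2 there were 4, and without NPC replicate 5 there were 7.

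The stage steps of the 3 genotypes share no libraries. Of the 25 members lower in control lines at the first step, 6 were lower in deletion lines (24% of the control list and 100% of the deletion list) and 16 in duplication-deletion lines (64% and 94.1%). All 25 had negative values in both. Of all genes lower in control lines at this step, 56.4% were lower in deletion lines and 62.9% in duplication-deletion lines, and 98.9% and 98.8% had negative values. Of the 43 at the second step, 19 were lower in deletion lines (44.2% and 95%) and 14 in duplication-deletion lines (32.6% and 100%), and all 43 were negative in both. The shares over all genes were 43.7% and 32.9%, with 98.3% and 97.6% negative. The members' shares at the second step, and in duplication-deletion lines at the first, were near those of all genes. The members lower in all 3 genotypes were Mrpl1, Mrpl15, Mrpl24, Mrps18b and Mrps31 at the first step, and Mrpl3, Mrpl13, Mrpl15, Mrpl18, Mrpl20 and Mrps27 at the second.

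Mrpl15 was lower at both steps in every genotype. In deletion lines it read 105, 124 and 56.5 CPM in ESC, 25.3, 28.8 and 33.2 CPM in NPC, and 9.63 and 13.6 CPM in neurons. In duplication-deletion lines it read 106, 132 and 79.8 CPM, then 25.6, 25.2 and 22.2 CPM, then 11.6 and 10.5 CPM. No stages overlapped, with log2 fold changes of -1.72 and -1.33 in deletion lines and -2.09 and -1.12 in duplication-deletion lines.

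**Figure D4:**
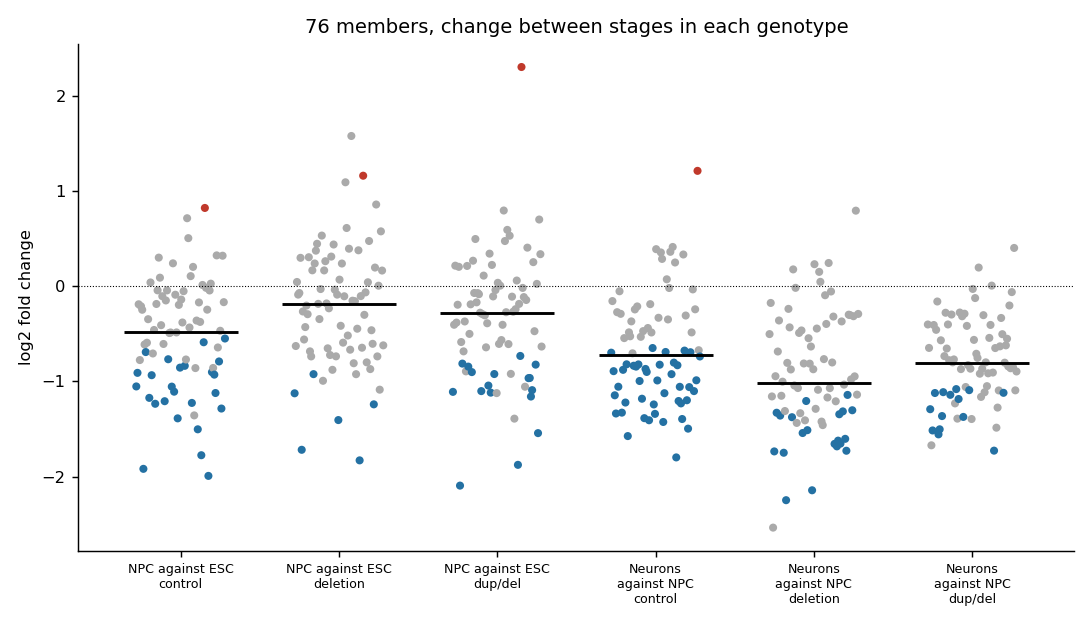
The log2 fold changes of the 76 members between stages in each genotype. Points are members, spread in alphabetical order, blue where lower, red where higher and grey where not past an adjusted p of 0.05, and bars are medians. Medians lie below 0 in all 6 strips, from -0.18 to -1.02.

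Whether the steps differed between genotypes was tested as an interaction in 1 fit over all libraries, and no member passed in any of the 4 interactions. Of the 19996 genes tested, 0.005% passed in each but the duplication-deletion interaction at the second step, where 0% did. At an unadjusted p under 0.05 there were 1 and 2 members for the deletion at the first and second step, against 3.22% and 3.1% of all genes. There were 1 and 1 for the duplication-deletion, against 2.67% and 5.02%. limma-voom also called 0 members. The member with the smallest p for the deletion at the first step was Mrps34, at a log2 difference of 1.496 ± 0.532 SE (adjusted p = 1).

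Between genotypes at 1 stage, no member passed in any of the 9 comparisons, and few genes passed at all. For deletion against control, 0 genes of the deleted segment passed at any stage. Yet 19 of 20 tested had negative values in ESC, 21 of 22 in NPC and 22 of 22 in neurons. Their median log2 fold changes were -1.24, -0.74 and -0.90. The lack of a call therefore does not show that a member was unchanged between genotypes. The share of all genes called was 0% in the 3 ESC comparisons. In NPC it was 0.00596% for deletion against control, 0.0119% for duplication-deletion against control and 0.0238% for deletion against duplication-deletion. In neurons it was 0%, 0.039% and 0.0335% in the same order.

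At an unadjusted p under 0.05 there were 2, 0 and 1 members in ESC in that order, against 1.26%, 0.31% and 0.996% of all genes. In NPC there were 0, 1 and 1, against 3.56%, 2.66% and 4.01%. In neurons there were 0, 1 and 7, against 3.63%, 7.22% and 8.85%. DESeq2 called 1 member in 1 comparison, given below. The authors' deposited table called 0 of 76 members in its 6 comparisons with control. It called 0.0212% and 0.0362% of its genes with an adjusted p for deletion and duplication-deletion in ESC, 0.849% and 0.372% in NPC, and 0.28% and 1.18% in neurons. The median member log2 fold changes against control were -0.18 and -0.02 in ESC for deletion and duplication-deletion, 0.01 and 0.02 in NPC, and -0.19 and -0.01 in neurons.

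In ESC, replicate numbers were taken to pair the libraries, since same-numbered libraries deviated together. The summed member level of the deletion library was below that of its control in 3 of 3 pairs, for each subunit as well. The pairs read 2582 against 2823 CPM, 2898 against 3043 CPM and 2123 against 2680 CPM. It was also below duplication-deletion in 3 of 3 pairs. On raw totals it was below control in 2 of 3 pairs, and with DESeq2 size factors below duplication-deletion in 2 of 3. The lower sums in deletion libraries were not particular to the members. Cytosolic ribosomal protein sums read 32486 against 40027 CPM, 41933 against 48104 CPM and 36762 against 50651.5 CPM in the same pairs. Oxidative phosphorylation sums read 4989 against 5682 CPM, 6092 against 6680 CPM and 4960 against 7219 CPM. Of the 76 members 61 had negative log2 fold changes for deletion against control (80.3%), against 52.4% of all genes. The pair at 2123 against 2680 CPM held deletion replicate 3, the shallowest library, with 23.1% of its counts in Lars2. The median member log2 fold change was -0.18, and -0.08 without that library. Without deletion replicate 2 it was -0.28. With the pairs as a block, edgeR called 0 members at an adjusted p under 0.05. The edgeR p-values and standard errors printed for ESC genotypes came from group means, without the pairs.

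Mrps34, a mitochondria-specific small subunit protein, had the smallest p in ESC. It read 5.87, 4.32 and 6.92 CPM in deletion lines against 14.6, 10.8 and 10.9 CPM in control and 12.1, 11.3 and 13.3 CPM in duplication-deletion lines. The deletion libraries lay below all others, with a log2 fold change against control of -1.04 ± 0.278 SE (unadjusted p = 0.00368 and adjusted p = 1 by edgeR). In NPC it read 7.67, 7.54 and 15.8 CPM in deletion lines and 5.95 to 9.92 CPM in control lines. Its span overlaps 3 other entries.

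Mrps21 had the smallest p in both comparisons of duplication-deletion lines with control after ESC. In NPC it read 48.1, 52.4 and 253 CPM, against 28.6 to 53.5 CPM in control lines, a log2 fold change of 1.58 ± 0.479 SE that was 0.46 without the shallow libraries. In neurons it read 35 and 46.0 CPM, against 24.0, 19.9, 14.5 and 15.6 CPM in control and 12.8 and 13.4 CPM in deletion lines. The duplication-deletion neurons lay above all others, with log2 fold changes of 1.12 ± 0.279 SE against control (adjusted p = 0.571) and, for deletion against duplication-deletion, -1.60 ± 0.341 SE (adjusted p = 0.354). DESeq2 gave the latter an adjusted p of 0.00492, the only member it called between genotypes. For duplication-deletion against control in neurons, the authors' deposited DESeq2 result for Mrps21 had an adjusted p of 0.0635.

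**Figure D5:**
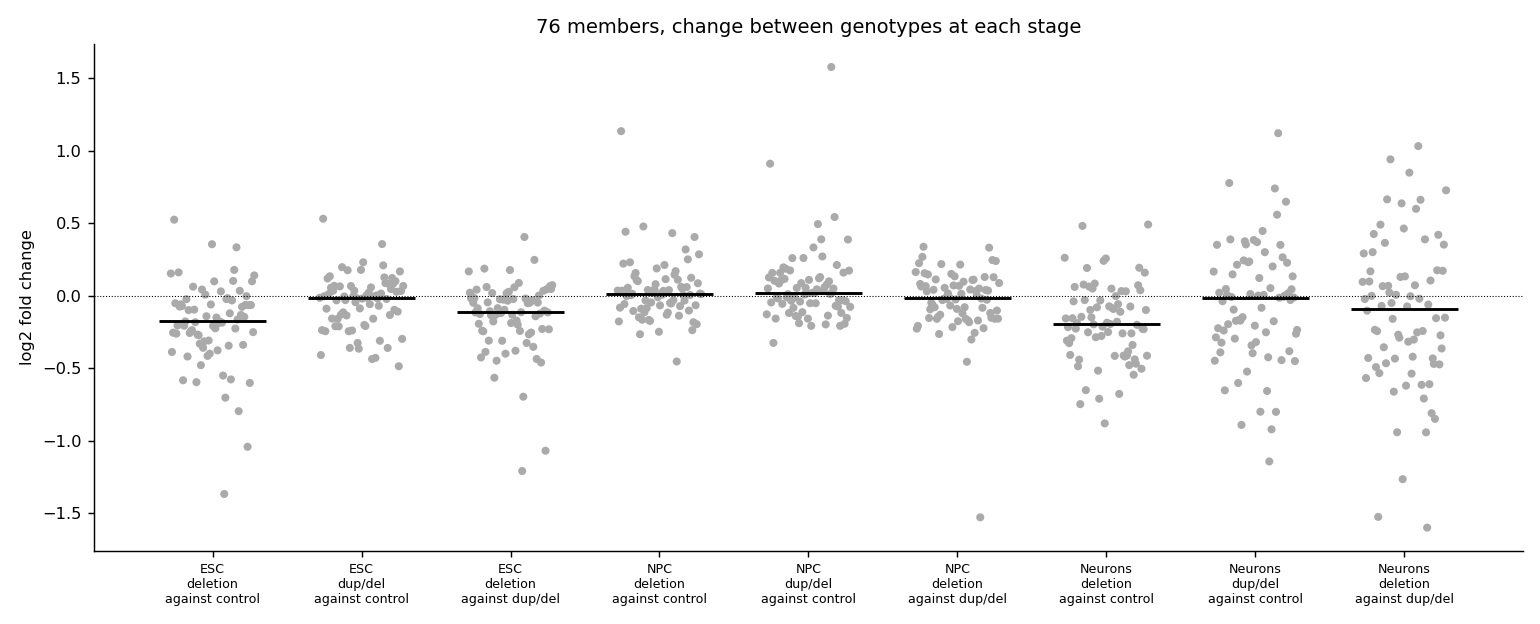
The log2 fold changes of the 76 members between genotypes at each stage. Points are members, spread in alphabetical order, all grey because none passed an adjusted p of 0.05, and bars are medians. The isolated high points in NPC are Mrpl12 and Mrps21.

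The shallow ESC and NPC libraries stood apart from the deeper libraries of their groups for many members, in both directions. In all 6 groups, 13 members were above every deeper library and 2, Mrps10 and Mrps15, were below. Of all 19996 genes tested, 5.64% were above in all 6 groups and 4.54% below. Mrps12 was 2.29 to 7.29 times the mean of the deeper libraries of its group and Mrpl12 2.11 to 6.22 times, while Mrps15 was 0.524 to 0.865 times. Mrpl12 shows what this does to a genotype comparison. It read 9.05, 21.4 and 85.6 CPM in deletion NPC, the last in the shallow library, and its log2 fold change against control was 1.13 ± 0.734 SE with that library and -0.20 without it. What sets these libraries apart was not tested.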

How the data were processed

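The members and lists were chosen with earlier results of these data known. Per the submitters' processing notes, STAR 2.6.0c, RSEM 1.3.0 and DESeq2 1.22.2 were used with the mm9 build. The authors deposited expected counts per gene from 28 RNA libraries, and a table of comparisons with control holding log2 fold changes with standard errors, test statistics (a score per gene), p-values and mean normalised levels (a signal). Other samples of the series were not analysed here.

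Values were rounded to whole numbers, and 92 entries for spike-in RNAs were dropped. CPM used TMM-scaled totals. edgeR 4.0.16 quasi-likelihood tests were fitted separately for the stages of each genotype and for the genotypes of each stage, with edgeR's filter on low counts, and Benjamini-Hochberg adjustment at 0.05 over all genes tested. All 76 members passed the filter in every fit. Alternatives were DESeq2 1.42.0, limma-voom (limma 3.58.1), other scalings, no filter, unrounded counts, a replicate block, leaving out the 6 shallow libraries, and leaving out each library. The tests were also run on simulated counts with the same spread for every gene and no library effects beyond depth. That setting differs from these libraries, so it does not show how the tests perform on them.

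Named members were the 6 most changed in each direction at each control step among those called without overlap of libraries, up to 4 called or else the 2 with the smallest p per genotype comparison, and members picked for their role. Mrps6 and other members named outside this rule were chosen after their values were seen. The deposited files give no transcript lengths, so levels were not compared between genes and the part of the rule that needed them was dropped. Same-numbered ESC libraries deviated together in all 9 pairs (r = 0.224 to 0.692), so numbers were taken to pair ESC genotypes. Other fits did not meet this rule. In ESC the highest values, 0.569 to 0.692, were among the shallow replicate 3 libraries. Some ESC pairs with different numbers also deviated together, with r up to 0.24 for control replicate 2 and duplication-deletion replicate 1. A further 6 entries that spell a member in capitals hold up to 17.4% of that gene's counts (MRPL13) and were not members. The deposited spans of 26 members overlap another entry, among them Mrpl3, Mrpl22, Mrps22, Mrps24, Mrps27 and Mrps31, and those of 50 do not. Some overlaps arise from a very wide deposited span of the other entry. Ap2b1 overlaps both Mrps24 (chr11:5603986-5607702, mm9) and Mrpl22 (chr11:57985156-57993082). Cdkn2d overlaps both Mrps22 (chr9:98489150-98502098) and Mrpl3 (chr9:104955598-104979806). For these members an overlap of spans does not show that reads are shared.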

Additional observations from a re-analysis of the deposited data

Results flagged for a closer look

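Among 68 group values checked, in control NPC and control neurons, 4 had a library far from the rest of its group, and chance flags about 1 in 20. The ratio of large to small subunit CPM in control NPC was 1.94 in 1 library and 1.84 to 1.87 in the others. Mrps17 read 38.9 CPM in 1 control neuron library and 18.1 to 20.4 CPM in the others. Mrpl9 read 10.6 CPM in 1 control neuron library and 15.4 to 15.7 CPM in the others. Mrps30 read 31.6 CPM in 1 control NPC library and 26 to 27.5 CPM in the others.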

How the results depend on the processing

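In control lines the lower members numbered 21 to 30 at the first step and 39 to 43 at the second over the alternatives other than leaving out 1 library. Leaving out 1 library gave 20 to 27 and 38 to 43, and 0 to 1 higher members at each step. Without the shallow libraries, 0 members were higher at the first control step. In deletion lines the first step had 10 lower members with DESeq2 size factors, 13 with upper-quartile scaling, 13 with DESeq2 and 10 without the shallow libraries, where 0 were higher. Leaving out 1 library gave 3 to 9 lower and 0 to 1 higher there, 8 to 21 lower at the second step, and in duplication-deletion lines 6 to 15 lower with 0 to 1 higher, then 0 to 15 lower. With DESeq2 size factors, 8 were lower at the second duplication-deletion step. DESeq2 called 1 member lower for deletion against duplication-deletion in neurons. The log2 fold change of Mrpl12 for deletion against control in NPC ranged from -0.20 to 1.604 when 1 library was left out, the lowest without NPC deletion replicate 5 (adjusted p = 0.975). Scaling moved the median log2 fold change of all genes by over 0.1 at 4 steps: from NPC to neurons in control lines, 0.10 became 0.22 with DESeq2 size factors, in deletion lines 0.02 became 0.15 with them and 0.18 with upper-quartile scaling, and from ESC to NPC in deletion lines 0.10 became -0.07 with the latter, and in duplication-deletion lines 0.07 became -0.04 with it. The medians of the deletion interactions, 0.24 and -0.19, became -0.09 and 0.06 without the shallow libraries. The cause was not tested.

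Outside the ESC genotypes not every same-numbered pair deviated together, so the numbers were not taken to pair libraries: r was -0.29 to 0.355 between stages and -0.0307 to 0.495 between NPC or neuron genotypes. The 3 pairs of the shallow NPC replicate 5 correlated at 0.388, 0.481 and 0.472. With the replicate block, 7 members were lower at the second deletion step and 0 higher at the first, and in duplication-deletion lines 3 were lower and 0 higher at the first step and 6 lower at the second. In ESC, where the numbers were taken to pair the libraries, the block called 0 members. Adding the 6 capitalised entries to their members, and the block without shallow libraries in ESC, were chosen after seeing the data, and neither changed a count of calls. Groups of 2 or 3 libraries limit the precision of the mutant comparisons.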
